A study of Homo sapiens with 9 samples.

Results

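The transcriptome of Huh7 cells after 48 h of exposure to pentagalloyl glucose (PGG) was compared with that after 6 h of exposure to the same agent. Huh7 is an established line from a human hepatocellular carcinoma, and PGG is a plant polyphenol in which glucose carries galloyl groups. The comparison used the 3 arrays of cells given PGG for 48 h and the 3 arrays of cells given PGG for 6 h, which is 6 of the 9 arrays of the series, chosen by their sample titles. PGG was dissolved in PBS and given at 0.1 mg/ml in both groups, to cells seeded 24 h earlier. The other 3 arrays came from cells given PBS alone for 48 h by their titles, although another label of the same arrays gives 0 h of treatment. They entered the same fit and serve here as a reference level. All cells were of the same line, the arrays of a group are labelled as biological replicates, and how their cultures were separated is not given in the labels. No PBS array of 6 h was used here, so longer exposure to PGG and longer time in culture cannot be told apart in any difference between the 48 h and the 6 h arrays. By the titles, the 6 h arrays also differ from PBS both in PGG and in time in culture. Their distance from PBS therefore cannot be assigned to PGG alone.

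Cells that meet a toxic agent go through early transcript changes, some of which fade while others grow, and different programmes keep different time. The heat shock, metal and oxidant responses guard proteins and thiols. The hypoxia programme serves glycolysis and matrix building, and the factor ATF4 drives amino acid supply when translation is restrained. Proliferating hepatoma cells also keep up the genes of DNA replication, mitosis and ribosome assembly, together with secreted liver proteins such as albumin. Each of these programmes is described below by a list of member genes.

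The labelled cell type was checked first. The hepatoma markers albumin (ALB), alpha-fetoprotein (AFP) and SERPINA1 had mean log2 signals of 13.5, 13.5 and 13.2 at 6 h, and of 13.4, 13.1 and 13.3 at 48 h. Other hepatocyte and hepatoma markers were lower at 48 h than at 6 h. The differences were -1.94 for APOB, -1.58 for KRT8, -0.84 for KRT18, -0.77 for FGB, -0.54 for TTR and -0.34 for APOH. TF differed by 0.45, with 1 of its 4 probe sets called lower, and APOA1 and GPC3 were not called. Of 12 measured markers of blood, endothelial and stromal cells, 1 rose and 3 fell from 6 h to 48 h. Their mean log2 signal was 5.71 to 5.74 on the 6 h arrays and 5.63 to 5.68 on the 48 h arrays. PTPRC and CDH5, which define leukocytes and endothelium, stayed at 3.3 to 3.4 in both PGG groups, while the lysozyme gene LYZ read 12.13 at 6 h and 11.96 at 48 h. The 48 h arrays stood apart in the control probes for RNA integrity. The difference between the 3′ and the 5′ control of ACTB was 1.13 to 1.23 on the 6 h arrays, and it was 2.14, 4.03 and 2.67 on replicates 1, 2 and 3 of 48 h. The same difference for GAPDH was 1.83 on replicate 2 of 48 h and at most 0.39 on each of the other 8 arrays. Arrays of 1 PGG group correlated at 0.993 or more across probe sets, against 0.965 to 0.968 between the groups. In bulk RNA, fewer cells of a kind and less RNA per cell cannot be told apart, and the signals are relative to the total of each array.

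From 6 h to 48 h, 9298 of 19775 genes (47%) changed at an adjusted p under 0.05 by limma, 4675 (23.6%) upward and 4623 (23.4%) downward. A log2 difference of at least 1, which is a 2-fold change, was also met by 2247 genes (11.4%), of which 1258 (6.36%) rose and 989 (5%) fell. At the threshold of the study's methods, here an adjusted p under 0.005 with a log2 difference beyond 1.5, 1652 of 54613 probe sets (3.02%) passed, 956 (1.75%) higher and 696 (1.27%) lower at 48 h. Without replicate 2 of 48 h the count of genes was 9362, and with the ACTB control difference as a covariate it was 7408. That difference was larger on every 48 h array than on any 6 h array. The covariate therefore cannot separate RNA integrity from exposure time, and calls lost or gained with it here and below do not decide between them. Of the 2247 genes, 1450 had several probe sets. In 760 of these every other probe set was called in the same direction, and in 57 another was called in the opposite direction. A value given below for a gene is that of its brightest probe set unless stated, and its other probe sets were not always called.

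The 2247 genes fell into 5 kinds by where the 3 PBS arrays lay, as the plot of genes by place of the PBS arrays shows. For 591 genes the PBS arrays overlapped the 6 h arrays, and 352 of these were higher and 239 lower at 48 h, so that the difference was present only late. For 601 genes PBS lay beyond the 6 h arrays, so that a difference seen at 6 h was larger at 48 h, with 351 genes higher and 250 lower. PBS lay between both times for 910 genes (40.5%), 476 of them higher and 434 lower at 48 h. The PBS arrays overlapped the 48 h arrays for 100 genes and lay beyond them for 45, which are differences that returned to the PBS level or moved back towards it. The distances of both times are taken from the same PBS arrays, so the counts are a description. PBS is of 48 h by its titles, so a distance of the 6 h arrays from PBS may hold time in culture as well as PGG. They rest on the ranges of 3 arrays per group. By limma calls against PBS at an adjusted p under 0.05, 829 genes did not differ at 6 h and 497 had PBS beyond 6 h. PBS was then between the times for 780 genes, with 48 h for 100 and beyond 48 h for 41. By a fixed margin, 129 genes lay at least log2 1 from PBS at 6 h and within 0.5 of it at 48 h, 70 of them rising and 59 falling between the times. In 24 genes the distance from PBS was at least log2 1 at both times and in opposite directions, with 18 higher and 6 lower at 48 h.

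**Figure D1:**
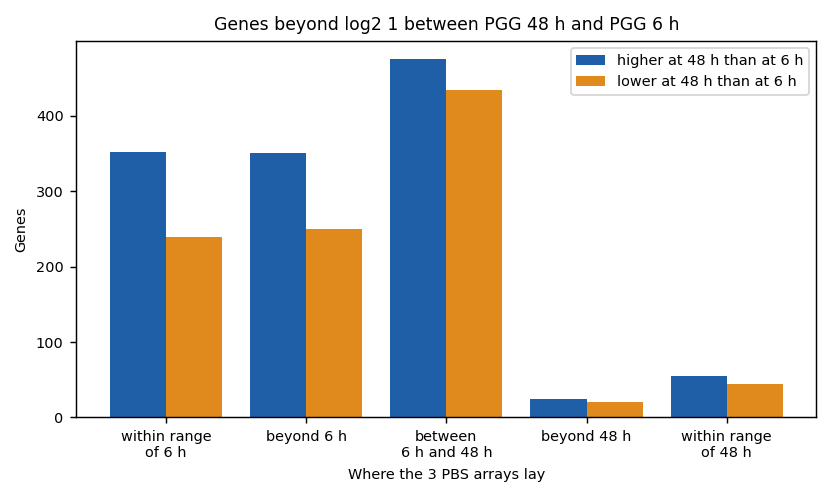
Number of genes (vertical axis) that differed by at least log2 1 at an adjusted p under 0.05 between PGG 48 h and PGG 6 h, by where the 3 PBS arrays lay against the arrays of both times (horizontal axis), with blue bars for genes higher and orange bars for genes lower at 48 h. The tallest pair of bars is that of 910 genes with PBS between both times, and the shortest is that of 45 genes with PBS beyond the 48 h arrays.

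The largest rise was that of ENO2, which encodes the neuronal isoform of the glycolytic enzyme enolase. Its log2 signal was 4.41, 4.83 and 4.56 on the 6 h arrays and 10.27, 10.49 and 10.45 on the 48 h arrays, a difference of 5.80 ± 0.15 (SE, n = 3 per group, limma adjusted p = 8.50e-11). The PBS arrays, at 4.20, 4.58 and 4.84, overlapped those of 6 h. IGFBP1, a secreted liver protein that binds insulin-like growth factors, read 5.21, 5.29 and 5.39 at 6 h, 10.41, 10.44 and 10.36 at 48 h, and 8.77, 9.28 and 8.64 with PBS. It thus lay far below PBS early and above it late, and it rose by 5.11 ± 0.13 (adjusted p = 9.08e-11), although its other probe set differed by only 0.14. CREBRF, a regulator of the CREB3 family, gave 5.60, 5.51 and 5.38 at 6 h against 10.55, 10.45 and 10.48 at 48 h. It rose by 5.00 ± 0.07 (adjusted p = 2.22e-12), and all 5 of its probe sets were higher, by 2.65 to 5.00. The CDK inhibitor CDKN1C (p57) went from 5.55, 5.59 and 5.61 to 9.89, 9.87 and 9.88, with PBS at 6.37 to 6.41, a rise of 4.30 ± 0.06 (adjusted p = 1.23e-12).

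Other genes among the 15 largest rises covered transport, signalling and nuclear regulation. The water and glycerol channel AQP3 rose by 4.38, the small GTPase GEM by 4.39, and the complement inhibitor CD55 by 4.13. The other probe sets of AQP3 rose by only 0.82 and 0.61. The trypsin inhibitor SPINK1 rose by 4.18 and the tubulin TUBB2B by 4.15. BEX2 and BEX5, which belong to a family of small X-linked adaptor proteins, rose by 4.27 and 4.26. The nuclear receptor RORA rose by 4.11, with 6 of its 8 probe sets called higher. The coactivator PPARGC1A, which promotes mitochondrial and gluconeogenic genes, also rose by 4.11, from 3.95, 4.07 and 3.53 at 6 h to 7.86, 8.19 and 7.83 at 48 h. Its other probe set was not called, at -0.02. C11orf96 rose by 4.67, with its other probe set not called at 0.31, and the zinc finger gene ZNF165 by 4.66. The largest rises were chosen among genes whose 3 arrays of 48 h and 3 of 6 h did not overlap, so this holds for each by selection. It held for 52.5% of all genes.

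The deepest falls were smaller than the largest rises. The chromatin protein HMGA2, which is high in embryonic and tumour cells, read 9.58, 9.48 and 9.57 at 6 h and 5.81, 6.08 and 5.75 at 48 h, a difference of -3.66 ± 0.09 (adjusted p = 8.40e-11). Its PBS arrays, at 9.49 to 9.74, overlapped those of 6 h. Of its 9 probe sets only this 1 was called. The matrix glycoprotein THBS1 fell by 3.66 and was lower on all 7 of its probe sets. CTPS1, which makes CTP, fell by 3.57, from 9.42, 9.39 and 9.50 at 6 h to 6.03, 6.23 and 5.35 at 48 h. With PBS at 8.25 to 8.41, it lay above PBS early and below it late. DKK1, a secreted inhibitor of WNT signalling, read 7.69, 7.74 and 7.78 at 6 h and 3.88, 4.93 and 4.12 at 48 h, a difference of -3.43 ± 0.20 (adjusted p = 2.95e-08). The matricellular protein CCN2 read 10.26, 10.37 and 10.34 at 6 h and 6.98, 7.06 and 6.87 at 48 h, a difference of -3.35 ± 0.07 (adjusted p = 1.67e-11). PBS lay above 6 h for DKK1 but between the times for CCN2.

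Further deep falls were those of DDC, the aromatic amino acid decarboxylase (-3.25), the calcium-binding protein SCGN (-3.13), and BBOX1, which completes carnitine synthesis (-3.00). The glutathione transferase GSTA1 fell by 3.19 on the probe set with the highest mean, while its other probe set rose by 1.23, and the closely related GSTA genes may share these probes. GLIPR1 fell by 3.05 and was lower on all 5 probe sets. CDCA7 (-3.04) and the chromatin remodeller HELLS (-2.90), which act together at methylated DNA, both fell. PALMD fell by 3.00, SLC38A6 by 3.04 and CYREN, an inhibitor of end joining, by 3.48. The other probe set of CYREN was not called, at -0.07. UHRF1, a reader of methylated DNA that was chosen after its values were seen and is among the 24 genes on opposite sides of PBS, differed by -2.23.

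**Figure D2:**
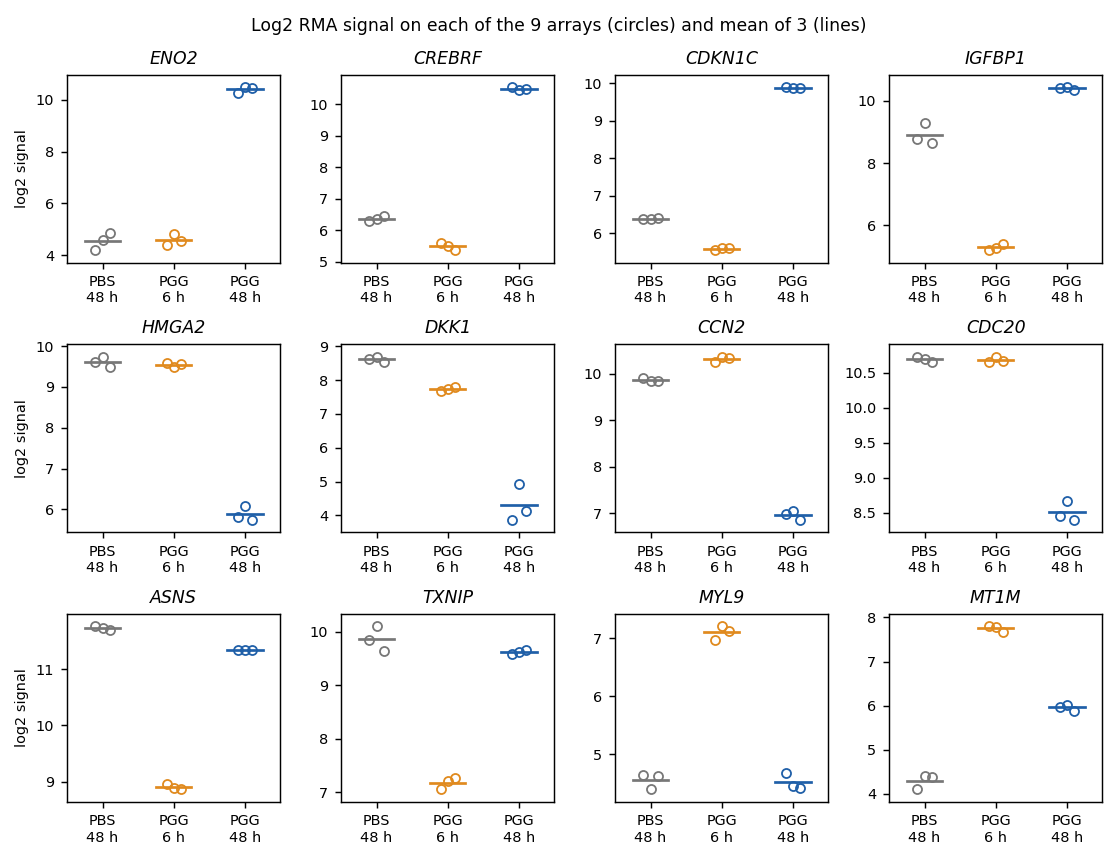
Log2 RMA signal (vertical axis, scaled separately in each panel) of 12 genes on each of the 9 arrays (open circles) with the mean of the 3 arrays of a group (lines), for PBS 48 h, PGG 6 h and PGG 48 h (horizontal axis). In every panel the 3 arrays of 6 h and the 3 of 48 h do not overlap, which was a condition for naming the largest rises and falls. PBS lies with 6 h for ENO2, HMGA2 and CDC20, between the times for CREBRF, CDKN1C, IGFBP1 and CCN2, and with or near 48 h for ASNS, TXNIP and MYL9.

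Genes that lay apart from the 48 h PBS arrays at 6 h, and with or nearer to them at 48 h, ran in both directions. TXNIP, the thioredoxin-interacting protein that restrains glucose uptake, read 9.84, 10.10 and 9.63 with PBS, 7.06, 7.21 and 7.26 at 6 h, and 9.59, 9.61 and 9.66 at 48 h. It rose by 2.44 ± 0.10 between the times, and its 48 h arrays overlapped PBS. Its relative ARRDC4 rose by 2.64 and still differed from PBS by -0.94 at 48 h. The lipase inhibitor G0S2 differed from PBS by -2.39 at 6 h and rose by 2.32. The membrane steroid receptor PAQR5 rose by 2.77. LAMP3, a lysosomal membrane protein, differed from PBS by -2.81 at 6 h and rose by 2.54. In the other direction, the myosin light chain MYL9 read 6.98, 7.21 and 7.13 at 6 h but 4.68, 4.45 and 4.42 at 48 h, with PBS at 4.65, 4.40 and 4.62. Its other probe set was not called, at -0.25. RBM14, an RNA-binding coactivator, was 2.29 above PBS at 6 h and fell by 2.29 on the probe set used, with all 3 of its probe sets lower. TNFRSF19, a receptor of the TNF family, fell by 2.14 on 1 of 3 probe sets.

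Among differences that grew with time, the ubiquitin ligase RNF183 rose by 3.60 from a level 0.70 above PBS at 6 h. GPR137B, a lysosomal membrane protein, rose by 3.51, and the phosphatase PTPRR by 3.11. TLR3, the endosomal receptor for double-stranded RNA, read 4.21, 4.33 and 4.33 at 6 h and 7.69, 7.84 and 7.62 at 48 h, a rise of 3.43 ± 0.07 (adjusted p = 2.92e-11). The soluble pattern recognition protein PTX3 rose by 3.10. YPEL4 lay in the PBS range at 6 h and then rose by 4.01.

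The 37 gene lists held 889 measured genes, and they are described by counts and medians only. The median log2 difference between 48 h and 6 h was -0.01 over all genes. Between these times 23.6% of all genes were called higher and 23.4% lower, and the counts of each list are to be read against these shares. Against the PBS arrays, which both times share, 34% of all genes differed at 6 h (17.2% higher, 16.9% lower) and 48.2% at 48 h (23.9% higher, 24.3% lower) at an adjusted p under 0.05. The highest list medians were those of the hypoxia response outside glycolysis (1.42) and the amino acid and ATF4 response (0.91), which were 0.88 and 0.58 with the mean of all probe sets of a gene. The lowest were those of the metallothioneins (-1.21), DNA replication (-0.95) and mitosis (-0.84). Without replicate 2 of 48 h, no count of called members in any list changed by more than 1.

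**Figure D3:**
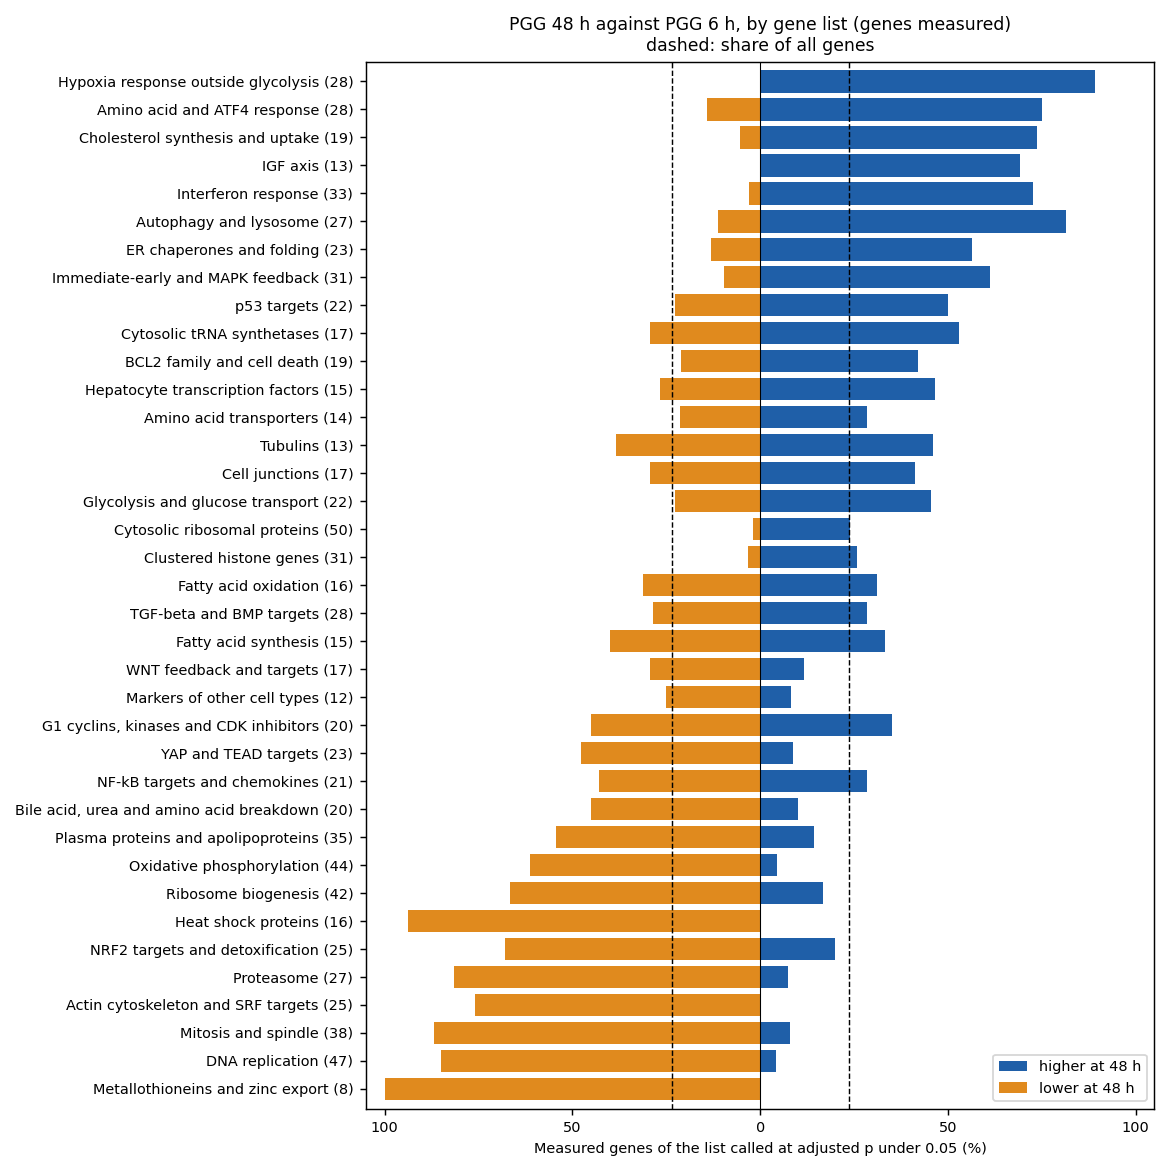
Share of the measured genes of each list (vertical axis, number measured in parentheses) called higher (blue, to the right) or lower (orange, to the left) at PGG 48 h than at PGG 6 h at an adjusted p under 0.05 (horizontal axis, %), with dashed lines at the shares of all genes, 23.4% lower and 23.6% higher. All 8 metallothionein and zinc export genes were lower and 25 of 28 hypoxia genes were higher.

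**Figure D4:**
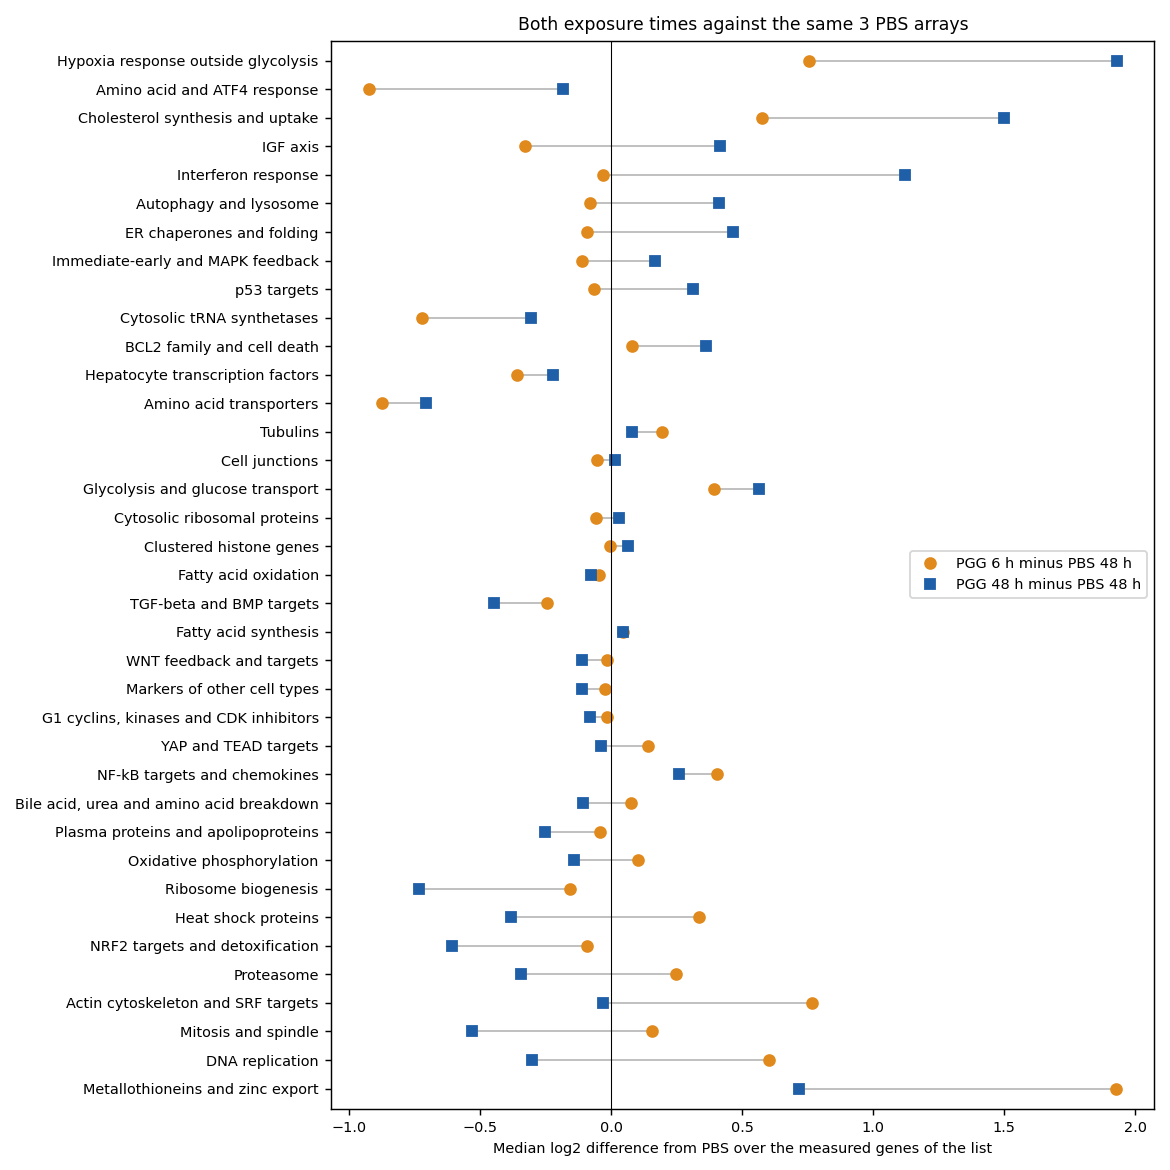
Median log2 difference from the same 3 PBS arrays (horizontal axis) over the measured genes of each list (vertical axis) at PGG 6 h (orange circles) and PGG 48 h (blue squares). The hypoxia list moved from 0.75 to 1.93, the DNA replication list from 0.60 to -0.30, and the actin list from 0.77 to -0.03.

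DNA replication genes mostly stood above PBS at 6 h and were more often below than above it at 48 h. At an adjusted p under 0.05, 37 of 47 were above PBS and 6 below it at 6 h. At 48 h 26 were below it and 10 above. Of all genes, 17.2% were above PBS at 6 h and 24.3% below it at 48 h. Of the 47, 40 fell and 2 rose from 6 h to 48 h, with medians of 0.60 above PBS at 6 h and -0.30 at 48 h, and 17 of those beyond log2 1 had PBS between the times. MCM10, which loads polymerase at origins, read 9.56, 9.55 and 9.64 at 6 h, 7.01, 7.32 and 7.05 at 48 h, and 7.94 to 8.11 with PBS, a difference of -2.46 ± 0.09 (adjusted p = 6.26e-10). The helicase subunits GINS2 and GINS1 differed by -2.02 and -2.01, and POLA1, the catalytic subunit of primase-polymerase alpha, fell by 1.91. The origin recognition subunit ORC4 and the clamp loader subunit RFC1 rose, by 0.63 and 0.45. Over the list, the mean difference from PBS was nearly equal on the 3 arrays of each time, as the plot of 8 lists by array shows.

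Of 38 mitosis and spindle genes, 33 fell and 3 rose, with a median of -0.84. CDC20, the activator of the anaphase-promoting complex, read 10.66, 10.73 and 10.67 at 6 h and 8.45, 8.67 and 8.40 at 48 h, while PBS was at 10.65 to 10.73. Its difference of -2.18 ± 0.07 (adjusted p = 5.70e-10) thus arose after 6 h. The mitotic cyclin CCNB1 fell by 2.05, with PBS between the times. The mitotic kinase PLK1 and the kinesin KIF23 each fell by 1.83. The checkpoint kinase TTK went the other way and rose by 1.22. The CDC25 phosphatase genes CDC25B and CDC25C rose by 0.39 and 0.35, and CDC25C was at -0.03 when all its probe sets were averaged.

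The RefSeq promoter of CDC20 (GRCh38.p14, chr1:43358731-43359030, plus strand) is shown because the cell cycle homology region, TTTGAA, is a known element of genes that peak in G2 and M phase. Capitals mark its matches on either strand within 300 bases around the start.
CDC20: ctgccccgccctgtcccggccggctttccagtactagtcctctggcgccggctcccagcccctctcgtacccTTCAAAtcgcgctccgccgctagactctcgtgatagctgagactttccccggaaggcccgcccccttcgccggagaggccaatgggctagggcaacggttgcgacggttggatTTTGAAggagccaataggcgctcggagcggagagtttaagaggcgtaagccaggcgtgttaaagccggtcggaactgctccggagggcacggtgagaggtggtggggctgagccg
Such a match was present in 22 of the 31 mitosis genes with a promoter in the table (71.0%), against 18.2% of 27305 genes. The CCAAT box, CCAAT on either strand, was in 26 of 31 (83.9%) against 39.7%. The E2F core GGCGC was in 39 of 41 replication genes (95.1%) against 51.8% of all genes. A match describes the letters alone.

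Among 20 regulators of G1, 9 fell and 7 rose. Cyclin D1 (CCND1) read 9.10, 8.98 and 9.10 at 6 h and 7.57, 7.32 and 7.75 at 48 h, a difference of -1.51 ± 0.10 (adjusted p = 6.55e-08). Its partner kinase CDK6 fell by 1.53. Cyclin E1 (CCNE1) fell by 1.33, on 1 of its 2 probe sets, to the PBS range after lying 1.17 above it at 6 h. The inhibitor CDKN1A (p21) read 7.02, 7.23 and 7.18 at 6 h and 8.52, 8.68 and 8.51 at 48 h, a rise of 1.43 ± 0.08 from a level within the PBS range. CDKN1B (p27) rose by 0.73, CDKN2D by 1.12, and the cyclin CCNG2, which is high in arrested cells, by 1.71. CDKN2D was called on 1 of its 2 probe sets. CCND3 fell by 0.37. MYC read 9.83, 9.84 and 9.92 at 6 h and 9.74, 9.97 and 9.67 at 48 h, so the groups overlapped and the difference of -0.07 ± 0.09 was not called (adjusted p = 0.565). Both times lay below PBS, which was at 11.57 to 11.78. GNMT, the glycine N-methyltransferase, differed by 0.25 (adjusted p = 0.103). It was called at 0.36 without replicate 2 of 48 h, at 0.63 with the ACTB control difference as a covariate and at 0.32 with array weights. Of 31 clustered histone genes, 8 rose, 1 fell and 22 were not called, with H2BC5 up by 2.26 and H2AC6 by 1.99. The share that rose, 25.8%, was near the 23.6% of all genes.

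**Figure D5:**
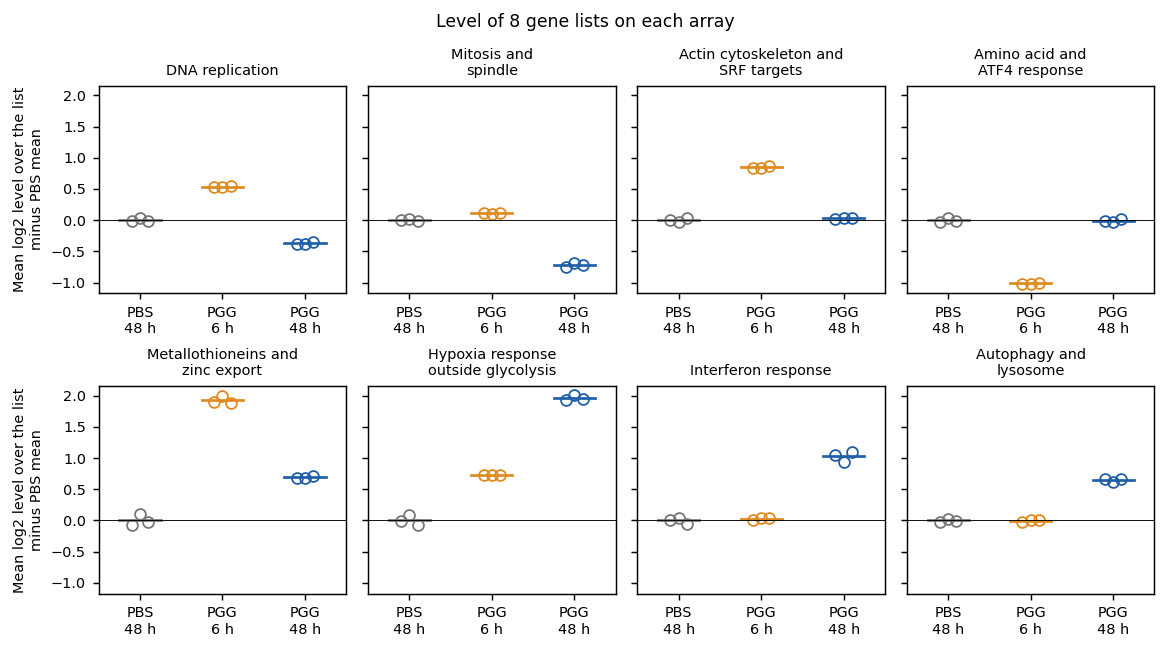
Mean log2 level over the measured genes of 8 lists minus the mean of the 3 PBS arrays (vertical axis) on each array (open circles), with group means (lines), for PBS 48 h, PGG 6 h and PGG 48 h (horizontal axis). The mean of the amino acid list lies about 1 below PBS on the 3 arrays of 6 h and near PBS on the 3 of 48 h. At 48 h, 10 of its 28 genes were above PBS and 13 below it at an adjusted p under 0.05. The mean of the interferon list lies at PBS at 6 h and is lowest on replicate 2 among the 48 h arrays.

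Ribosome assembly genes were lower late. Of 42, 28 fell and 7 rose, with medians of -0.16 from PBS at 6 h and -0.74 at 48 h. The assembly factor RRS1 read 9.18, 9.19 and 9.16 at 6 h and 7.09, 6.96 and 7.09 at 48 h, a difference of -2.13 ± 0.06 (adjusted p = 1.97e-10). UTP20 fell by 1.75, and POLR1A, the largest subunit of RNA polymerase I, fell by 1.66. BYSL fell by 1.47. The shared polymerase subunit POLR1D rose by 1.13 and the initiation factor RRN3 by 1.04. Another of the 3 probe sets of POLR1D was called lower, at -0.40. The 50 cytosolic ribosomal proteins differed little, with 12 higher, 1 lower, and none beyond a difference of -0.47 or 0.34.

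The amino acid and ATF4 genes showed the opposite course. Of 28, 23 lay below PBS at 6 h at an adjusted p under 0.05, as did 16.9% of all genes, and 21 then rose to 48 h while 4 fell, with a median rise of 0.91. The median difference from PBS went from -0.93 to -0.18. At 48 h 10 of the 28 were above PBS and 13 below it at an adjusted p under 0.05. Asparagine synthetase, ASNS, read 11.76, 11.72 and 11.69 with PBS, 8.96, 8.89 and 8.87 at 6 h, and 11.34 on each of the 3 arrays of 48 h, a rise of 2.43 ± 0.06 (adjusted p = 5.05e-11) on 1 of its 2 probe sets. INHBE, a hepatic activin subunit, rose by 3.08 and DDIT3, the stress factor CHOP, by 2.62. Both ended above PBS, by 1.52 and 2.15. The lipoprotein receptor VLDLR rose by 2.90. Against this direction, ATF5 fell by 0.54, DDIT4 and CHAC1 by 0.36, and PYCR1 by 0.23. With the ACTB control difference as a covariate, ATF5 (-0.34), CHAC1 (-0.29) and PYCR1 (-0.20) were no longer called.

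The ASNS promoter (GRCh38.p14, chr7:97872359-97872658, minus strand) is printed because it holds the amino acid response element letters TGATGNAA, in which N is any base and which were searched on both strands. Capitals mark the match.
ASNS: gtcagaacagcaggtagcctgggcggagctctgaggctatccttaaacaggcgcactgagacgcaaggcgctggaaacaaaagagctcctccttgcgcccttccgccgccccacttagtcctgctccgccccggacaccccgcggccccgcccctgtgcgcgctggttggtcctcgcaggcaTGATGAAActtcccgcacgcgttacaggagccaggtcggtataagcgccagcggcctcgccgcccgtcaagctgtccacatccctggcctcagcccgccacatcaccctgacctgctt
Only 5 of 22 genes of the list with a promoter in the table held such a match (22.7%), against 4.46% of all genes.

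Of 17 cytosolic tRNA synthetases, 9 rose and 5 fell. TARS1 (threonine), CARS1 (cysteine) and GARS1 (glycine) rose by 1.12, 1.10 and 1.03. VARS1 (valine) and FARSB (phenylalanine) fell by 2.07 and 1.72 from levels already below PBS, so the members did not move as a group. TARS1 and VARS1 were each called on 1 of 2 probe sets. Amino acid transporters differed little. Of 14, 4 rose (28.6%) and 3 fell (21.4%), near the 23.6% and 23.4% of all genes. The median difference from PBS was -0.88 at 6 h and -0.71 at 48 h. SLC3A2, the shared heavy chain of several transporters, rose by 0.75 while its light chain SLC7A5 fell by 0.94. Of 23 genes of the endoplasmic reticulum, 13 rose and 3 fell. The calcium-binding protein RCN1 rose by 2.41 and the stress sensor ERN1 by 2.33, the latter on 1 of its 3 probe sets. SEL1L, a part of the retrotranslocation complex, rose by 1.69. XBP1, whose mRNA is spliced by the ERN1 protein, fell by 0.64 on the probe set used, while its other probe set was called higher, at 0.24.

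Most hypoxia genes, 21 of 28, were above PBS at 6 h, and they were further above it late. Outside glycolysis, 25 of 28 rose, none fell, and the median difference from PBS went from 0.75 to 1.93, with all 28 above PBS at 48 h at an adjusted p under 0.05, as were 23.9% of all genes. LOXL2, a lysyl oxidase that crosslinks collagen, read 7.87, 7.95 and 7.94 at 6 h and 10.66, 10.63 and 10.60 at 48 h, a rise of 2.71 ± 0.07 (adjusted p = 1.14e-10). PBS lay lower still, at 6.17 to 6.43, but only 1 of its 4 probe sets was called. LOX rose by 2.42 and was higher on all 3 probe sets. PPFIA4 rose by 2.19 and P4HA2, a collagen prolyl hydroxylase subunit, by 1.93, the latter on 1 of its 3 probe sets. Of 22 genes of glycolysis and glucose transport, 10 rose (45.45%, against 23.6% of all genes) and 5 fell (22.7%, near the 23.4% of all genes). The aldolase isoform ALDOC rose by 2.02 and PFKFB4, which sets the level of a phosphofructokinase activator, by 1.15 after an early difference of 3.39 from PBS. HK2 rose by 1.38 on the probe set used, but 2 of its 3 probe sets were lower and their mean differed by 0.02. The phosphofructokinase genes PFKM and PFKL fell by 1.36 and 1.11, and PKM by 0.97.

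The ENO2 promoter (GRCh38.p14, chr12:6914330-6914629, plus strand) is shown for its match to the hypoxia response element core, ACGTG, searched on both strands and given in capitals.
ENO2: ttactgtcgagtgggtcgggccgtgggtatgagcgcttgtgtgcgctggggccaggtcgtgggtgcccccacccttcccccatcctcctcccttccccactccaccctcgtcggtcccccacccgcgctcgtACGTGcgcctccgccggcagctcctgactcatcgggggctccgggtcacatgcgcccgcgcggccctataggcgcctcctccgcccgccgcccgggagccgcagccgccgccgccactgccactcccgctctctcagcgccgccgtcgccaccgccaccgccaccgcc
The core was in 14 of 20 hypoxia genes with a promoter in the table (70.0%) and in 14 of 21 glycolysis genes (66.7%), against 24.9% of all genes. The promoter of LOX held up to 4 matches and that of ALDOC 3.

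Cholesterol genes rose as well. Of 19, 14 rose and 1 fell, and the median difference from PBS went from 0.58 to 1.5. INSIG1, the sterol sensor that retains SREBP in the endoplasmic reticulum, read 8.61, 8.46 and 8.48 at 6 h and 10.79, 10.95 and 10.83 at 48 h, a rise of 2.34 ± 0.07 (adjusted p = 2.11e-10), and its 3 probe sets rose by 1.99 to 2.38. STARD4, a sterol carrier, rose by 2.12. The synthesis enzymes MSMO1 and SQLE rose by 1.80 and 1.63. The CCAAT box was in 16 of 17 genes of the list with a promoter in the table (94.1%). Fatty acid synthesis was mixed, with 5 of 15 genes higher and 6 lower. ACSS2, which makes acetyl-CoA, rose by 1.83 and FASN fell by 1.29 on 1 of its 2 probe sets. The call of FASN was lost with the ACTB control difference as a covariate, where it was -0.28. In fatty acid oxidation 5 of 16 rose and 5 fell, which is 31.25% each, against 23.6% and 23.4% of all genes. Besides PPARGC1A, the mitochondrial kinase PDK4, which inhibits pyruvate dehydrogenase, rose by 2.17, from 2.97, 2.98 and 2.96 to 4.54, 5.84 and 5.05. The receptor PPARA rose by 1.28 and the carnitine transferase CPT1A by 1.08.

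Metallothioneins bind zinc and copper, and their early level had partly receded by 48 h. All 8 genes of the metal list fell, by 0.83 to 1.79, and the median difference from PBS went from 1.93 to 0.72. MT1M read 4.11, 4.41 and 4.39 with PBS, 7.80, 7.78 and 7.67 at 6 h, and 5.98, 6.01 and 5.89 at 48 h, a difference of -1.79 ± 0.08 (adjusted p = 5.88e-09). MT1X read 11.72, 11.85 and 11.62 at 6 h and 10.45, 10.35 and 10.54 at 48 h, with PBS at 9.41 to 9.67. MT1G and MT1E fell by 1.44 and 1.28. These genes are near copies, so their probe sets may share transcripts and are not independent.

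The promoter of MT1X (GRCh38.p14, chr16:56682220-56682519, plus strand) carries several copies of the metal response element core, TGCNCNC, which are in capitals on whichever strand they lie.
MT1X: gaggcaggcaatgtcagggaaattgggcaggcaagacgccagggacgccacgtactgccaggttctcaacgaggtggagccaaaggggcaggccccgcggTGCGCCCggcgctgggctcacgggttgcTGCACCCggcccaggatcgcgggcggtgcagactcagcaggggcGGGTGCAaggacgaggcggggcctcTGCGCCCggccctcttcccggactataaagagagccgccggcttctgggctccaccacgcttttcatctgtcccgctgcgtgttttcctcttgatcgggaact
There were 4 matches here, and the core was in all 4 genes of the list with a promoter in the table. It is a short and loose pattern that 59.4% of all genes hold.

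Heat shock and proteasome genes fell. Of 16 heat shock genes, 15 fell and none rose, with medians from PBS of 0.33 at 6 h and -0.38 at 48 h. The mitochondrial co-chaperonin HSPE1 read 11.94, 11.69 and 11.66 at 6 h and 10.06, 10.05 and 10.14 at 48 h, with PBS at 10.72 to 10.76. HSPH1 fell by 1.30, HSP90AA1 by 1.06 and the immunophilin FKBP4 by 1.05. Of 27 proteasome genes, 22 fell and 2 rose, PSMD1 by 1.41 and PSMD11 by 1.27 among the falls. Oxidative phosphorylation showed smaller differences, with 27 of 44 lower, 2 higher and a median of -0.28. CYC1, a subunit of complex III, fell by 1.23 and the ATP synthase subunit gene ATP5MC1 by 1.08. Among 25 targets of the oxidant sensor NRF2, 17 fell and 5 rose. The exporter ABCC3 fell by 1.53, TALDO1 by 1.25, the quinone reductase NQO1 by 1.19 and AKR1B10 by 1.11. HMOX1, the haem oxygenase, rose by 0.80 and MAFG, the partner of NRF2, by 0.83.

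Interferon response genes rose late. Of 33, 24 rose and 1 fell, and the median difference from PBS was -0.03 at 6 h and 1.12 at 48 h. ISG15, a ubiquitin-like modifier, read 7.95, 8.0 and 8.04 at 6 h and 10.93, 10.72 and 11.05 at 48 h, with PBS at 8.32 to 8.49, a rise of 2.90 ± 0.09 (adjusted p = 2.03e-10). The RNA sensor IFIH1 read 5.28, 5.43 and 5.88 at 6 h and 8.72, 8.61 and 8.94 at 48 h, a rise of 3.23 ± 0.14, and its 3 probe sets rose by 1.81 to 3.23. The immunoproteasome subunit PSMB9 rose by 2.67 and IFIT1, which binds foreign RNA caps, by 2.52. The guanylate-binding protein GBP1 was the 1 gene of the list that fell, while 8 were not called. It read 6.10, 6.09 and 5.67 with PBS, 9.45, 9.04 and 9.29 at 6 h, and 7.38, 6.93 and 7.35 at 48 h, a difference of -2.04 ± 0.15.

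The ISG15 promoter (GRCh38.p14, chr1:1013247-1013546, plus strand) is shown for the interferon-stimulated response element core, which is a pair of GAAA runs with any 2 bases between them, searched on both strands. Its 2 matches overlap and form the run in capitals.
ISG15: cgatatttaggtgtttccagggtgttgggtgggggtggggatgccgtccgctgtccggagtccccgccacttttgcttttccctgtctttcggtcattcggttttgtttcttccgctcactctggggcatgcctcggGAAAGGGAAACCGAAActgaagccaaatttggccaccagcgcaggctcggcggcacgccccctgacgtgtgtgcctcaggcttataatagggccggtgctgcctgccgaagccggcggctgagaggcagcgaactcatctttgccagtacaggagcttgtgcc
The core was in 18 of 26 genes of the list with a promoter in the table (69.2%), against 4.38% of all genes, with 3 matches for IFIH1, 2 for IFIT1 and 1 for GBP1, while none was in the window of PSMB9. The CArG box, which SRF binds, was in 5 of 21 such genes of the actin list (23.8%) against 1.60%.

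Targets of NF-kB were mixed, with 9 of 21 lower and 6 higher. The chemokines CXCL1, CXCL6, CXCL10 and CXCL5 fell, with differences of -1.85, -1.47, -1.2 and -1.10. CXCL6 read 8.66, 8.54 and 8.64 at 6 h and 7.09, 7.22 and 7.12 at 48 h, both above PBS at 5.52 to 5.80. The inhibitors TNFAIP3 and NFKBIE, which restrain the pathway, rose by 0.47 and 0.65.

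In growth factor signalling, 19 of 31 immediate-early and MAPK feedback genes rose and 3 fell. The transcription factor KLF4 read 8.29, 8.20 and 8.31 at 6 h and 10.86, 11.13 and 10.69 at 48 h, with PBS at 10.50 to 10.59, a rise of 2.63 ± 0.10 (adjusted p = 8.81e-10). ETS1 rose by 1.94, FOS by 1.83 and the ligand HBEGF by 1.80. ETS1 was called on 1 of its 3 probe sets and HBEGF on 2 of 4. PHLDA1 fell by 1.08. ETV4 fell by 0.97 but stood at 0.22 with the ACTB control difference as a covariate.

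Genes of the IGF axis were higher late in 9 of 13 cases and none fell. Besides IGFBP1, the binding protein IGFBP3 rose by 2.46, the adaptor IRS2 by 2.67 and the insulin receptor INSR by 1.66. IRS2 read 7.92, 7.97 and 7.99 at 6 h and 10.48, 10.88 and 10.53 at 48 h, with PBS at 8.74 to 8.79. For IRS2 and INSR alike, PBS thus lay between the times.

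Of 28 targets of TGF-beta and BMP, 8 rose and 8 fell, which is 28.6% each and near the shares of all genes (23.6% and 23.4%). The inhibitors of differentiation ID1, ID4 and ID3, which answer to BMP, fell from levels already below PBS, with differences of -1.92, -1.39 and -1.31, whereas ID2 rose by 0.78. The iron hormone HAMP, another BMP target, read 9.72, 9.26 and 9.30 with PBS, 5.49, 5.98 and 6.03 at 6 h, and 7.79, 7.55 and 7.80 at 48 h, a rise of 1.88 ± 0.15. Of 23 YAP and TEAD targets, 11 fell and 2 rose. Next to CCN2, CCN1 read 9.13, 8.97 and 9.18 at 6 h and 7.07, 7.28 and 7.11 at 48 h, a difference of -1.94 ± 0.08. The ectonucleotidase NT5E fell by 2.82. Of 17 WNT feedback genes and targets, 5 fell (29.4%, against 23.4% of all genes) and 2 rose (11.8%, against 23.6%). The stem cell receptor LGR5 read 5.95, 5.88 and 6.11 at 6 h and 2.72, 3.04 and 3.02 at 48 h, with PBS at 5.78 to 5.92. GLUL, the glutamine synthetase, rose by 0.64.

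The actin cytoskeleton genes and SRF targets fell. Their median at 48 h was near PBS, although 8 genes were above PBS and 7 below it at an adjusted p under 0.05. Of 25, 21 lay above PBS at 6 h at an adjusted p under 0.05, as did 17.2% of all genes, and 19 fell and none rose between the times, with medians from PBS of 0.77 and -0.03. TAGLN, an actin crosslinker, read 6.37, 6.10 and 6.24 with PBS, 8.82, 8.74 and 8.94 at 6 h, and 6.96, 6.98 and 6.96 at 48 h. The focal adhesion protein ZYX fell by 1.57. ACTB, beta-actin, read 13.77, 13.76 and 13.73 at 6 h and 12.20, 12.42 and 12.27 at 48 h, with PBS at 13.03 to 13.19, a difference of -1.46 ± 0.07 (adjusted p = 8.57e-09). The ACTB control probes named above measure the same transcript.

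Of 13 tubulins, 6 rose and 5 fell. TUBA1A rose by 3.05, TUBB2A by 1.27 and TUBB6 by 1.05, in addition to TUBB2B, while gamma-tubulin TUBG1 fell by 1.51. Of 17 junction genes, 7 rose and 5 fell. The tight junction gene CLDN1 fell by 1.74 and OCLN rose by 1.26, and the desmosomal plaque gene PKP2 fell by 1.45.

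Liver genes were lower late more often than higher among secreted proteins. Of 35 plasma proteins and apolipoproteins, 19 fell and 5 rose, with a median of -0.25. Apolipoprotein B (APOB) read 11.90, 11.96 and 11.98 at 6 h and 10.05, 10.09 and 9.89 at 48 h, with PBS at 11.94 to 12.05, a difference of -1.94 ± 0.07 (adjusted p = 7.13e-10). Haptoglobin (HP) read 7.43, 7.36 and 7.44 at 6 h and 5.31, 5.35 and 5.34 at 48 h, with PBS at 5.41 to 5.63. Ceruloplasmin (CP) fell by 1.87 and complement C5 by 1.64, and APOC3 rose by 1.13. Of 15 hepatocyte transcription factors, 7 rose (46.7%) and 4 fell (26.7%, near the 23.4% of all genes). NR0B2, the bile acid repressor SHP, rose by 2.54, from 6.98, 7.03 and 6.89 to 9.63, 9.37 and 9.52. CEBPA fell by 0.95 and PROX1 by 0.87. Of 20 genes of bile acid, urea and amino acid breakdown, 9 fell and 2 rose. TDO2, which opens the breakdown of tryptophan, fell by 1.40 and the bile acid carrier SLCO1B3 by 1.33, while arginase ARG1 rose by 0.88. TDO2 was called on 1 of its 2 probe sets and ARG1 on 1 of 4.

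Among 22 p53 targets 11 rose (50%) and 5 fell (22.7%), against 23.6% and 23.4% of all genes. TP53INP1 read 7.72, 7.59 and 7.76 at 6 h and 9.75, 9.91 and 9.79 at 48 h, a rise of 2.13 ± 0.08, on 1 of 3 probe sets. GADD45B rose by 2.07 and PLK2 fell by 1.5. In the BCL2 family 8 of 19 rose (42.1%) and 4 fell (21.05%), the latter near the share of all genes. The BH3-only proteins PMAIP1 (NOXA) and BCL2L11 (BIM), which promote apoptosis, rose by 2.06 and 1.25. The protective BCL2L1 fell by 0.96. The effector BAX read 6.91, 6.51 and 6.57 at 6 h and 5.61, 4.95 and 5.73 at 48 h, a difference of -1.23 ± 0.20, and this call was lost with the ACTB control difference as a covariate, where it was -0.45.

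Autophagy and lysosome genes rose late in 22 of 27 cases and fell in 3, with medians from PBS of -0.08 at 6 h and 0.41 at 48 h. ATG14, which directs the lipid kinase that starts autophagosomes, read 8.44, 8.51 and 8.47 at 6 h and 10.33, 10.61 and 10.36 at 48 h, a rise of 1.96 ± 0.08 (adjusted p = 2.78e-09). The lysosomal membrane protein LAMP2 rose by 1.66, the cargo receptor NBR1 by 1.60, and GABARAPL1 by 1.54. The 4 probe sets of NBR1 rose by 0.49 to 1.60. SQSTM1 (p62), another cargo receptor, fell by 0.55, as did ATG10 by 0.56 and ATG7 by 0.54. The call of ATG7 was lost with the ACTB control difference as a covariate (-0.17), and another of its probe sets rose by 0.41.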

How the data were processed

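Gene expression was measured in Huh7 cells on 9 Affymetrix arrays of 54675 probe sets, 3 arrays per group. The deposited values are on a log2 scale and had been background-corrected, normalized and summarised by the authors with RMA in Affymetrix Expression Console, per the submitters' processing notes (version not given in the sources used here). No scanner files were used here, so background calls were not available to set bounds. The 62 control probe sets were left out and 54613 were tested. Of these, 41091 name 1 gene, 1801 several and 11721 none, and for each gene the brightest of its own probe sets, by the mean of all arrays, was used, with symbols set against RefSeq. Groups were fitted with limma 3.58.1 (lmFit and eBayes) in R 4.3.3 on all 9 arrays, and p-values were adjusted by Benjamini-Hochberg over all genes. The number of arrays limits the precision. The p-values set each difference against the spread between these arrays, and how their cultures were separated is not given. On simulated data the fit called 23, 48, 50 and 50 of 50 probe sets changed by log2 0.5, 1, 2 and 3, and 8 of 54413 unchanged ones. The simulated noise was independent between arrays and few probe sets changed, whereas 47% of genes were called in the data. These rates therefore check the fit and do not give the error rates of the data.

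Members and gene lists were chosen with earlier results of these data known. Genes were named as the 15 largest rises and falls without overlap and with a mean of at least 6 in the higher group, up to 4 of each direction per list, the 6 largest per place of PBS, and the genes that the study measured by RT-PCR. Promoters are those of a RefSeq table, and the interferon and CArG motifs were added after values had been seen. Alternatives were the replicate block, the 6 PGG arrays alone, the mean of all probe sets, quantile normalization, median centring, a filter at a mean of 5, array weights, a trended robust variance, the ACTB covariate, the methods' t-test, calls against PBS and leaving out each PGG array.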

Additional observations from a re-analysis of the deposited data

Results flagged for a closer look

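In 910 genes the PBS arrays lay between those of both exposure times by the ranges of 3 arrays, so that the difference from PBS ran in opposite directions. By limma calls against PBS at an adjusted p under 0.05 there were 780 such genes. Only the 6 of these with the largest differences are listed here, and in each all 3 arrays of 6 h lay below and all 3 arrays of 48 h above the PBS arrays. The difference between the times, which is the limma contrast of 48 h against 6 h, was 5.11 for IGFBP1, 5.00 for CREBRF, 4.66 for ZNF165, 4.38 for AQP3, 4.30 for CDKN1C and 4.27 for BEX2. Both distances share the same 3 PBS arrays, and the PBS arrays are of 48 h by their titles. Groups of 3 arrays were not tested for a single outlying array.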

How the results depend on the processing

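The number of genes called was 9298 and lay between 7408, with the ACTB control difference as a covariate, and 9862, with array weights, over all alternatives. It was 8457 to 9362 with each PGG array left out in turn, and the genes beyond log2 1 then numbered 2175 to 2296. By the methods' t-test 7861 genes passed after Benjamini-Hochberg adjustment, and 1463 probe sets passed at the study's threshold. The share of calls that were higher at 48 h was 47.2% to 52.1% under every setting, and the median of all genes stayed between -0.05 and 0.00. With the mean of all probe sets of a gene, the genes whose PBS arrays overlapped those of 6 h numbered 382 in place of 591, and those overlapping 48 h numbered 59 in place of 100, since fewer genes (1572) then passed log2 1. The latter count was 62 without replicate 2 of PGG 48 h, and 62 to 105 over all arrays left out. The mean of all probe sets also lowered the list medians of the hypoxia response (0.88), the amino acid and ATF4 response (0.58), the endoplasmic reticulum (0.24) and the IGF axis (0.29), and over all settings 26 lists had a median that moved by more than the spread between arrays. Reversed signs under the mean of all probe sets were those of CDC25C (-0.031), PECAM1 (-0.58) and the median of the amino acid transporters (-0.067). Under the ACTB covariate, ETV4 (0.22) and the median of the hepatocyte transcription factors (-0.011) reversed. This covariate did not overlap between the 6 h and the 48 h arrays, so its estimates rest on the spread within groups. The cause was not tested.

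The replicate numbers of the titles were used as a block once. The deviations of same-numbered 48 h and 6 h arrays correlated at 0.16, 0.06 and -0.02, against -0.16 to 0.11 for other-numbered arrays. Whether same-numbered arrays share a culture or a batch is not given in the labels, and these few values cannot decide it. With the replicate block 9207 genes were called, 2251 of them beyond log2 1, and 1655 probe sets passed the study's threshold, and among the named genes only CTNNB1 (-0.33) was no longer called. Low signals limit what could be seen, since no detection calls were used.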
